A study of Bos taurus with 2 samples.

Results

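The 8 genes described here encode the interferon-induced CXC chemokines CXCL9, CXCL10 and CXCL11, their receptor CXCR3, the homeostatic chemokines CXCL12 and CXCL14, the receptor of CXCL12, CXCR4, and the transmembrane chemokine CXCL16. They were taken by name, as every probe for a gene whose symbol on the array, or whose current symbol by transcript accession, was one of the 8. This step used no measured values, but the 8 genes were chosen with earlier results of these data known. The rule gave 18 of the 43653 gene probes. Of these, 15 probes of 7 genes were measured on both arrays, among 27878 probes of 12473 named genes in all. CXCR3 was the gene left without a value.

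The arrays hold mammary tissue of adult female Chinese Holstein cows in late lactation, 1 array labelled mastitis and 1 labelled normal, whose cows were healthy. The study had 3 cows per group, collected tissue soon after slaughter, and its text does not say which cow or cows each array represents. By its account the cows with clinical mastitis, attributed to gram-negative bacteria, had been given antibiotics, unlike those without mastitis, which means that effects of disease and treatment cannot be told apart. With 1 array per condition no difference has a replicate check and no test between conditions was possible. Every SD given is over probes of a gene and is technical.

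Chemokines are small secreted proteins that steer leukocytes along gradients. In human and mouse, interferon gamma induces CXCL9, CXCL10 and CXCL11 in epithelial, endothelial and myeloid cells, and all of them act through CXCR3 on activated T cells and natural killer (NK) cells. CXCL12 is made steadily by stromal cells and retains leukocytes that carry CXCR4, while CXCL14 is made steadily by epithelia and CXCL16 is anchored in the membrane until proteases release it. In the infected mammary gland the early influx is mainly of neutrophils, which answer to other CXC chemokines.

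A value here is a net signal, the median intensity of a spot less the mean of the negative control spots, as the scanner software wrote it. A probe counted as measured when the software found its spot on both arrays and the net signal exceeded a limit set by the 153 negative controls (their mean plus 2.6 SD), which was 7.10 for mastitis and 8.74 for normal. Signals were scaled to the 75th percentile of their own array (210 for mastitis, 128 for normal) before the log2 ratio of mastitis over normal was taken, so a gene with a ratio of 0 has a higher net signal on the mastitis array. The median log2 ratio of all 12473 genes was -0.15. Replicate spots, available for 41 probes, had a pooled SD of 0.16 on this scale, and different probes of a gene one of 0.44. The casein genes CSN1S1, CSN2 and CSN3, which define lactating tissue, were well above background on both arrays at every probe, but their levels lay far apart. Their 13 probes had net signals between 34 and 11925 on the mastitis array, against 25968 to 65511 on the normal array, where 3 of them were saturated, and the milk protein gene LALBA was above background on the normal array alone.

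The 3 interferon-induced ligands had lower ratios, CXCL10 mainly through 1 of its 3 probes, and the homeostatic members higher ones. On the mastitis array 2 of the 7, CXCL9 and CXCL11, were at least 2-fold lower, 2 of the 7, CXCL14 and CXCR4, were at least 2-fold higher, and CXCL10, CXCL12 and CXCL16 were within 2-fold. The background was 9.12% of all measured genes for a ratio this low and 2.29% for one this high. The median over the 7 measured members was 0.17. The sign of each of the 7 ratios was the same in all settings tried that gave a value, other than the authors' table of log2 values taken as deposited, in which CXCL9 had a ratio of 0.54 and CXCL12 of -2.46. That table's rows are displaced by 1 probe against the scanner signals. Not every setting could move a ratio. Leaving out saturated probes returned the same value for each of the 7. Taking the brightest or median probe left CXCL9 and CXCL14, with 1 measured probe each, as they were.

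**Figure D1:**
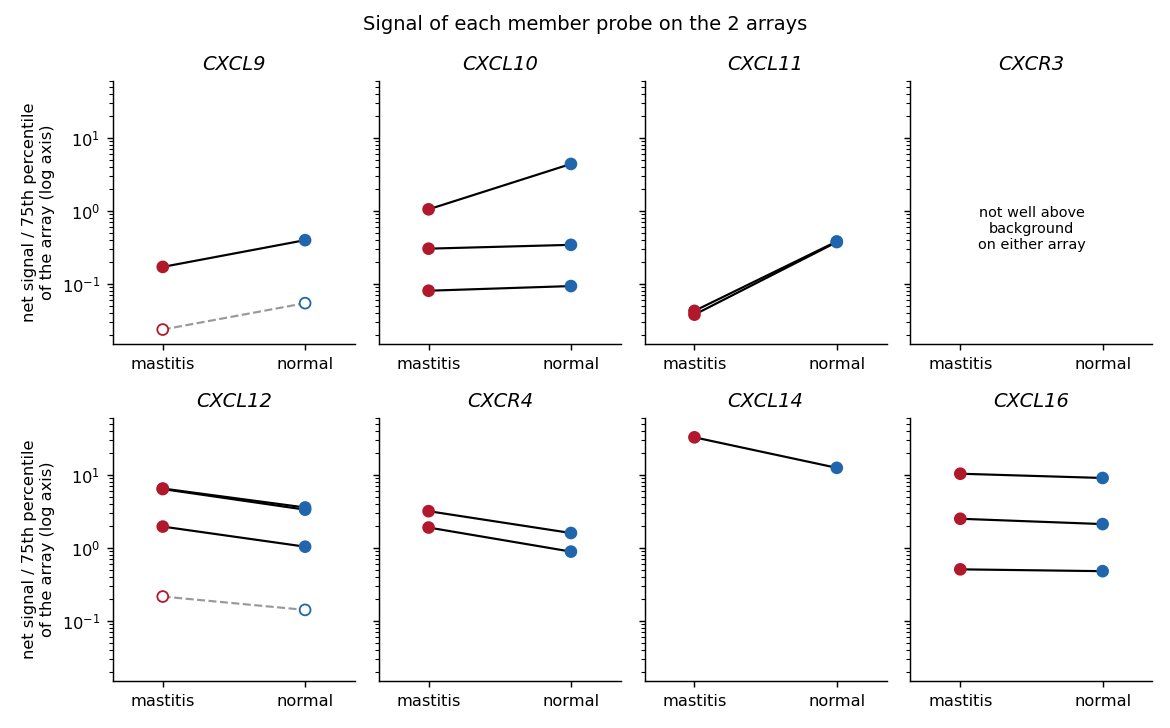
Net signal divided by the 75th percentile of its array (vertical log axis) of each probe of the 8 members, mastitis on the left and normal on the right of each panel, with a line joining the values of a probe. Filled points with solid lines are the 15 measured probes, open points with dashed lines are probes that were not measured on both arrays, and lines slope up to the right for CXCL9, CXCL10 and CXCL11 and down for CXCL12, CXCL14, CXCL16 and CXCR4.

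CXCL11 had the lowest ratio of the members. Its probes had net signals of 8 and 9 on the mastitis array, against 48 and 49 on the normal array. Both probes thus moved to the edge of the background: 3 of the 153 negative controls on the mastitis array reached 8 and 1 of them reached 9, and neither spot carried the scanner's mark for a good spot there. On the normal array no negative control came as high as either probe. The log2 ratio was -3.23 (SD 0.10, 2 probes), a 9.38-fold lower value, and 0.577% of all genes had a lower ratio. The probes are not independent, since 1 of them was designed on a sequence tag that the array's annotation lists among the hits of the other's transcript. With the normexp background correction, a convolution model that adds a constant of 50 to every signal, the log2 ratio was -1.22. When both arrays had to reach a net signal of 50, or every spot had to be marked good, CXCL11 had no value.

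CXCL9 was measured by 1 of its 2 probes. That probe had a net signal of 36 on the mastitis array, against 51 on the normal array, giving a log2 ratio of -1.22 or 2.32-fold lower, with 6.02% of genes below it. The other probe read 5 and 7 in the same order, and the scanner software found its spot on neither array. The ratio of the measured probe passed 2-fold by little, and it was -0.74 with normexp, -0.95 when the arrays were scaled on spike-in probes and -0.50 without scaling.

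CXCL10 was the member whose probes disagreed most. Its brightest probe had a net signal of 221 on the mastitis array, against 563 on the normal array, giving a log2 ratio of -2.06 or 4.18-fold lower. The middle probe had 64 on the mastitis array, against 44 on the normal array, for a log2 ratio of -0.17, and the dimmest had 17 and 12 in the same order, a log2 ratio of -0.21. All 3 probes are annotated to the same transcript, and every one of them lay above all negative controls on both arrays. After scaling to the 75th percentile all 3 ratios were below 0. Those of the middle and dimmest probes lay close to the median of all genes (-0.15). So the size of the change depended on the probe: the gene mean was -0.82 (SD 1.08, 3 probes) and the median over probes -0.21. Of the 2699 genes with at least 3 measured probes, 54 had a larger SD over probes, and the median SD of those genes was 0.24. Before scaling, the middle and dimmest probes were brighter on the mastitis array and the brightest probe was brighter on the normal array.

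The receptor of these ligands, CXCR3, had a single probe. It read 2 on the mastitis array, against 0 on the normal array, within the range of the negative controls. Of the 153 negative controls, 42 were at least as bright as the probe on the mastitis array, against 117 on the normal array. A level of CXCR3 was therefore not detectable on either array, and no ratio is given.

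**Figure D2:**
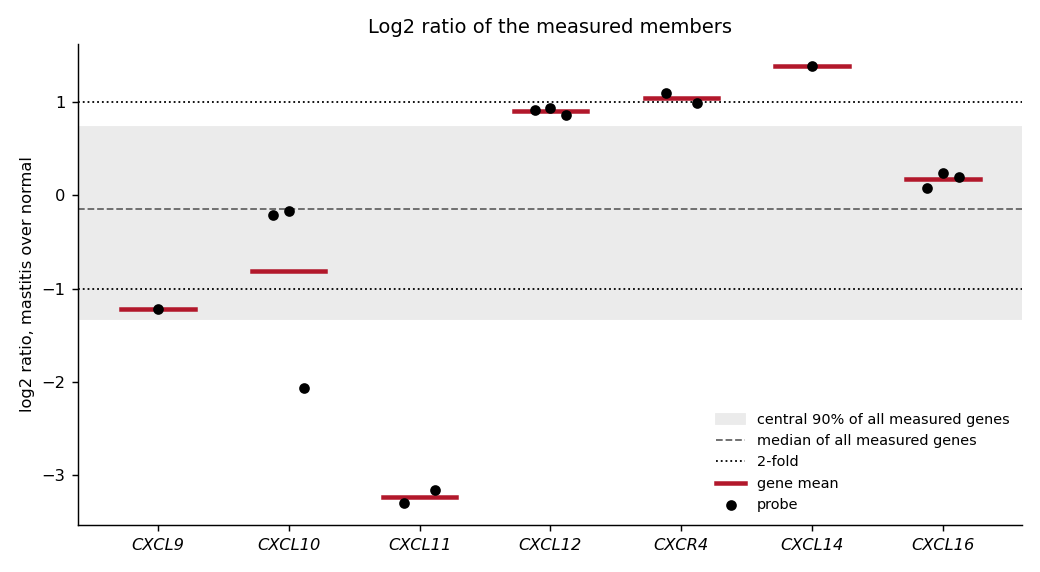
Log2 ratio (vertical axis, mastitis over normal) of the 7 measured members. Points are probes, red bars gene means, the dashed line the median ratio over all genes (-0.15), dotted lines 2-fold and the grey band the central 90% of all genes (-1.32 to 0.73); CXCL11 at -3.23 lies below the band, CXCL12, CXCR4 and CXCL14 lie above it, and the points of CXCL10 fall into a pair near -0.2 and a single one at -2.06.

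CXCL12 had a higher ratio with probes that agreed closely. On the mastitis array its measured probes had net signals of 1354, 1331 and 408, against 454, 424 and 132 for the same probes on the normal array. The log2 ratios lay between 0.86 and 0.94, and the gene mean was 0.90 (SD 0.04, 3 probes), a 1.87-fold higher value that stayed short of 2-fold. Only 3.03% of genes had a higher ratio. A further probe had 45 on the mastitis array, against 18 on the normal array, where the scanner software did not find the spot. CXCL12 passed 2-fold when the arrays were scaled by their medians (1.05), on spike-in probes (1.17) or not at all (1.62), and with the authors' log2 table moved by 1 probe (1.12).

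CXCR4, the receptor that CXCL12 signals through, moved the same way. Its probes had net signals of 663 and 396 on the mastitis array, against 203 and 113 on the normal array. The log2 ratios of these probes were 0.99 and 1.09, the mean was 1.04 (SD 0.07, 2 probes), and the gene was 2.06-fold higher. The value lies on the 2-fold line: with normexp it was 0.91 and with the brightest probe alone 0.99. ACKR3, which takes up CXCL12 without the usual signal, had net signals of 83 and 67 on the mastitis array, against 18 and 13 on the normal array, for a log2 ratio of 1.57 (SD 0.11, 2 probes). Its probes were dim on the normal array, and with normexp the ratio was 0.37. The ligand and both receptors of this axis thus had ratios above 0 at all 7 measured probes.

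CXCL14 had the highest ratio of the members. Its only probe had a net signal of 6796 on the mastitis array, against 1583 on the normal array, far above background on both. The log2 ratio was 1.39, a 2.62-fold higher value, and 0.850% of genes had a higher ratio. In the 16 settings other than the table as deposited, it stayed at least 2-fold higher, between 1.37 and 2.10. The settings that only select probes or spots returned the same 1.39 and could not move it, because the gene has 1 bright probe. A single probe gives no spread.

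CXCL16 was close in level on both arrays after scaling. Its probes had net signals of 2158, 522 and 106 on the mastitis array, against 1150, 269 and 61 on the normal array. The log2 ratios were 0.19, 0.24 and 0.08, with a mean of 0.17 (SD 0.08, 3 probes), which was 0.32 above the median of all genes. CXCR6, the receptor of CXCL16, had 387 on the mastitis array, against 187 on the normal array, for a log2 ratio of 0.34 from a single probe. The sheddases of CXCL16 were also close: ADAM10 had a log2 ratio of 0.32 (SD 0.20, 3 probes) and ADAM17 of -0.04 (SD 0.47, 4 probes). No gene of this ligand, receptor and protease group differed 2-fold.

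**Figure D3:**
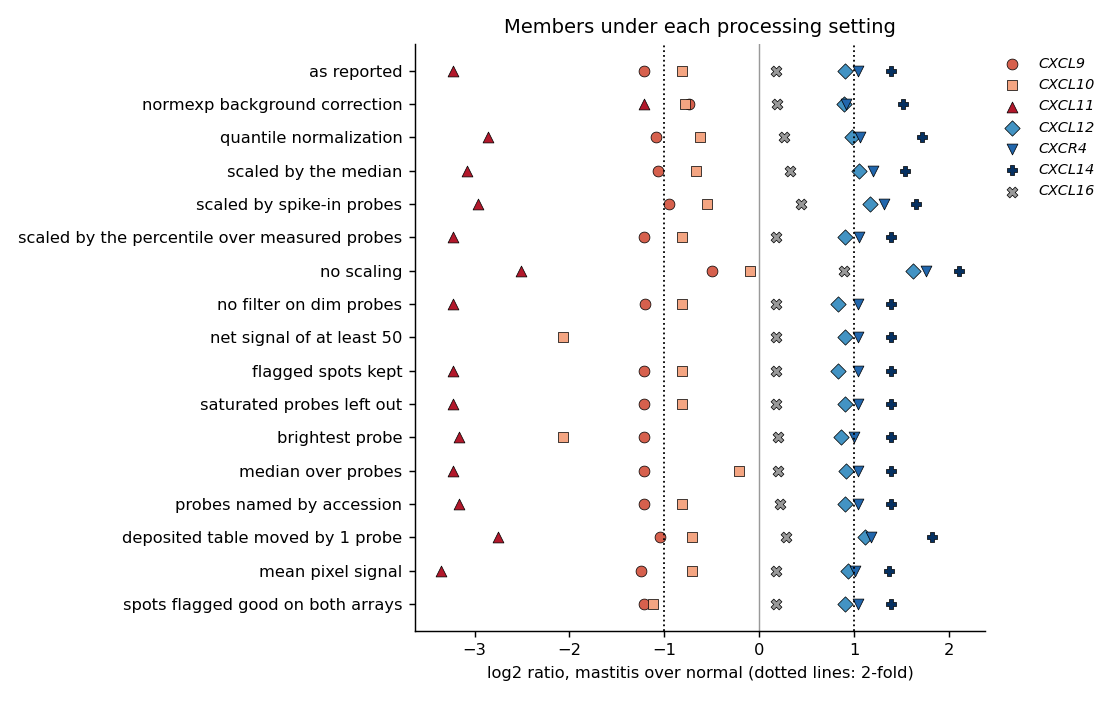
Log2 ratio (horizontal axis, mastitis over normal) of the 7 measured members under the processing as reported and 16 other settings, 1 row each, with dotted lines at 2-fold; the authors' table with displaced rows is not drawn. CXCL9, CXCL10 and CXCL11 stay left of 0 in every row where they have a value and the other members right of it, with CXCL11 between -3.35 and -1.22 and CXCL14 between 1.37 and 2.10.

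The other CXC chemokines and receptors gave a background for these values. Of the 13 on the array, 10 were measured, with 6 lower by 2-fold or more on the mastitis array, 3 higher by as much and a median log2 ratio of -1.94. The lowest ratios were those of genes of the neutrophil system, the receptor CXCR1 (-4.09) and the ligands CXCL2 (-3.22), CXCL8 (-2.96, SD 0.90, 3 probes) and CXCL5 (-2.56). These were dim on the mastitis array, where CXCR1 rested on 1 of 3 probes at 8 and CXCL2 on a single probe at 12. With normexp their ratios were -1.65, -1.39, -1.55 and -1.32, in the same order, and the list median was -1.07. The 3 with higher ratios were ACKR3, the B cell attractant CXCL13 (1.47, 50 on the mastitis array, against 11 on the normal array) and its receptor CXCR5 (1.61). CXCR5 rested on 1 of 2 probes, and the probes went opposite ways, with 90 on the mastitis array against 18 on the normal array for the first and 7 on the mastitis array against 58 on the normal array for the second. With normexp none of the 3 reached 2-fold (0.37, 0.16 and 0.47). Of the 20 measured regulators of chemokine activity, only the proteoglycan gene SDC4 passed 2-fold (-1.71, SD 1.58, 3 probes). The other largest ratios in that list were -0.85 for the receptor kinase gene GRK2, 0.77 for RGS1, which damps chemokine receptor signals, and -0.76 for the decoy receptor ACKR1. DPP4, a protease that trims CXCL10 and CXCL12, was measured on the mastitis array alone, with its brightest probe at 20 there, against 9 on the normal array, where no probe of it counted as measured.

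Genes upstream and alongside the interferon-induced ligands did not move as a block. IFNG, which encodes interferon gamma, was above background on neither array, with probes at 7 and 1 on the mastitis array, against 5 and 4 on the normal array. The transcription factor gene IRF1, which interferon gamma induces, had a log2 ratio of -0.36 (SD 0.51, 2 probes). That mean came from its dim probe, at 14 on each array (-0.71). The bright probe, at 1007 on the mastitis array against 613 on the normal array, had a ratio of 0.002. Of 20 measured genes of interferon gamma signalling and its targets, 4 were lower by 2-fold or more on the mastitis array, and 0 were higher by as much. The lower ones were the immunoproteasome subunit gene PSMB9 (-3.07, SD 0.20, 2 probes), IL18BP, which encodes an inhibitor of interleukin 18 (-2.20), the tryptophan tRNA synthetase gene WARS1 (-1.46, SD 0.25, 5 probes) and the receptor chain gene IFNGR2 (-1.23). IFNGR2 rested on a single probe and fell short of 2-fold with normexp (-0.99), spike-in scaling (-0.96) or no scaling (-0.51). In this list 3 genes were lower and 1 higher with spike-in scaling, and 2 lower and 4 higher without scaling. The list median of -0.22 was close to that of all genes and turned to 0.05 on spike-in probes and to 0.50 with unscaled signals. Of 24 measured genes of type I interferon signalling and its targets, only the exonuclease gene ISG20 passed 2-fold (-1.42, SD 0.13, 2 probes), and the median was 0.06, or -0.05 with normexp. ISG20 did not reach 2-fold with normexp (-0.82), and no gene of the list did with a net signal of at least 50 or with probes named by accession alone. The next largest ratios there were those of the dim probes of IFIT3 (-0.88), MX2 (-0.71) and IFIT2 (-0.66), all induced by interferon. Outside the 24 measured genes, OAS1X (-3 on the mastitis array, against 19 on the normal array) was above background on the normal array alone. So was IFNAR1 (6 against 9). After scaling they were at least 3.90-fold and 1.85-fold lower on the mastitis array. OAS1Z (20 against 9) went the other way and counted as measured on the mastitis array alone. The probes of these genes were dim too.

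CXCL9, CXCL10 and CXCL11 lie in a row in the RefSeq annotation of ARS-UCD2.0, with ART3, which encodes an ADP-ribosyltransferase, between CXCL9 and CXCL10. The genes on either side, chosen by position after the data were seen, did not share the lower ratios. SDAD1 had a log2 ratio of 0.14 (SD 0.29, 3 probes) and NAAA of 0.38 (SD 0.01, 2 probes) on the side of CXCL9. NUP54 had 0.02 (SD 0.36, 4 probes) and SCARB2 0.82 on the side of CXCL11. The gene model of ART3 overlaps those of CXCL10 and CXCL11, and its probes disagreed. Of its 2 measured probes, both annotated to the same sequence tag, 1 had 9 on the mastitis array, against 49 on the normal array, and the other 9 on each. Its remaining probes had 5 and 3 on the mastitis array, both below background, and 16 and 25 on the normal array.

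**Figure D4:**
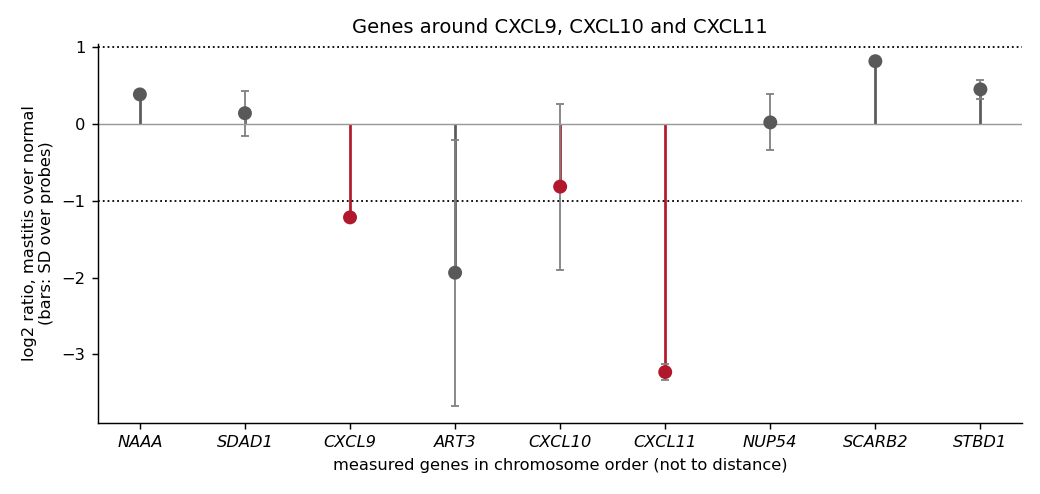
Log2 ratio (vertical axis, mastitis over normal) of the measured genes around CXCL9, CXCL10 and CXCL11 in chromosome order along the horizontal axis, not to distance, with the chemokine genes in red, bars for the SD over probes where a gene has more than 1 and dotted lines at 2-fold. The chemokine genes and ART3 lie below 0, at -1.22, -1.94, -0.82 and -3.23 in this order, and the other 5 genes lie above 0.

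Markers of the cells that make or answer to these chemokines were measured in the same way. In whole tissue, fewer cells of a type and less RNA per cell cannot be told apart. None of the 19 measured markers of T and NK cells was at least 2-fold apart, with a median log2 ratio of 0.03 that turned to -0.19 with normexp, and the largest ratios were those of CD2 (-0.99), CD5 (0.84), CD4 (-0.68) and TBX21 (-0.63), a transcription factor of cells that carry CXCR3. Their summed scaled signal was 59.9 on the mastitis array, against 81.0 on the normal array, but CD4, measured by 1 of its 5 probes, made up 36.7 of the mastitis sum and 58.8 of the normal sum. The other 18 markers summed to 23.2 on the mastitis array, against 22.1 on the normal array, and EOMES was above background on neither. NCR1 (2 on the mastitis array, against 13 on the normal array) and IL2RB (5 against 10) were above background on the normal array alone. After scaling they were at least 2.67-fold and 2.05-fold lower on the mastitis array. KLRD1 (29 against 7) was above background on the mastitis array alone, at least 1.96-fold higher there. All of these probes were dim. Most macrophage markers had higher ratios: 5 of 13 were at least 2-fold higher, none was at least 2-fold lower, the median was 0.89 and the sum was 112 on the mastitis array, against 62.2 on the normal array. The largest ratios were those of CD5L (3.18), the scavenger receptor CD163 (1.76), the mannose receptor MRC1 (1.27, SD 0.19, 2 probes) and the complement gene C1QA (1.08, SD 0.04, 2 probes), while MARCO was above background on neither array. CD5L rested on 1 of 2 probes and CD163 on a single probe at 21 on the normal array. With normexp CD163 (0.66) and MRC1 (0.92) fell short of 2-fold, while CD5L (2.47) and C1QA (1.14) did not. CD14, a coreceptor for bacterial lipopolysaccharide, was the only one of the 13 with a ratio below 0 (-0.77, SD 0.51, 3 probes).

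Stromal markers, whose cells make CXCL12, had a median of 0.49, with 1 of 15 at least 2-fold higher, the matrix gene FBLN1 (2.82-fold, 2212 on the mastitis array, against 478 on the normal array), and 1 lower, the collagen gene COL3A1 (-1.09, SD 0.50, 10 probes). PDGFRB, a receptor of fibroblasts and pericytes, had 0.92 (SD 0.44, 2 probes) and the collagen gene COL1A1 -0.81 (SD 0.22, 5 probes). The PDGFRB probes were dim on the normal array (13 at most), and with normexp its ratio was -0.05. The stromal sum was 123 on the mastitis array, against 90.03 on the normal array. Endothelial markers had a median of 0.27, none of 14 was 2-fold apart, and their sum was 33.1 on the mastitis array, against 26.0 on the normal array. The endothelial genes with the largest ratios were PLVAP (0.87), PECAM1 (0.76), EMCN (0.65) and MMRN2 (-0.59).

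Markers of luminal epithelium, the secretory layer, had a median of -0.35, which turned to 0.08 with quantile normalization and 0.36 without scaling, with 2 of 13 at least 2-fold lower, the mucin gene MUC1 (-3.40, SD 1.03, 5 probes) and the transcription factor gene ELF5 (-2.22, SD 0.01, 2 probes), while the keratin gene KRT18 had 0.97 and EHF -0.80. Their sum was 101 on the mastitis array, against 155 on the normal array, and KRT23 was above background on neither. KRT19 made up 45.6 of the mastitis sum and 61.4 of the normal sum. Without KRT19 the sums were 55.9 on the mastitis array, against 93.7 on the normal array. ELF5 (mean net signal 1876 on the mastitis array, against 5316.5 on the normal array) and MUC1 (117 against 1464.4) weighed in that difference. Among 12 measured markers of neutrophils, 8 had ratios lower by 2-fold or more and 0 higher by as much (3 lower and 3 higher without scaling), with a median of -1.38. The cathelicidin genes CATHL1 (0.69), CATHL2 (0.57) and CATHL4 (0.62) had ratios above 0. Their list summed to 148 on the mastitis array, against 324 on the normal array, of which LTF, the lactoferrin gene, with 1 of 5 probes saturated on each array, made up 125 in mastitis and 278 in normal. Without LTF the sums were 23.6 on the mastitis array, against 46.6 on the normal array. LTF (-1.63, SD 0.69, 5 probes) was also among the 8 lower markers. Which cells of the whole tissue gave its signal, neutrophils or others, was not tested. CXCR1, ELANE (-3.56), CSF3R (-2.26) and S100A12 (-1.70) had the lowest ratios of the neutrophil list, and CXCR2, MPO and CD177 were above background on neither. Of 9 measured B and plasma cell markers, 2 were at least 2-fold lower, MZB1 (-1.27) and MS4A1 (-1.17), and 1 was at least 2-fold higher, BLK (1.39). MS4A1 rested on 1 of 2 dim probes (16 on the mastitis array, against 22 on the normal array). Its other probe read 35 on the mastitis array. BLK rested on a single probe (142 against 33). With normexp MS4A1 (-0.63) and BLK (0.64) fell short of 2-fold, while MZB1 (-1.02) did not. POU2AF1 had -0.73, and the B and plasma cell sum was 31.8 on the mastitis array, against 34.1 on the normal array. The part of these cells in the ratios of the chemokine genes was not tested.

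**Figure D5:**
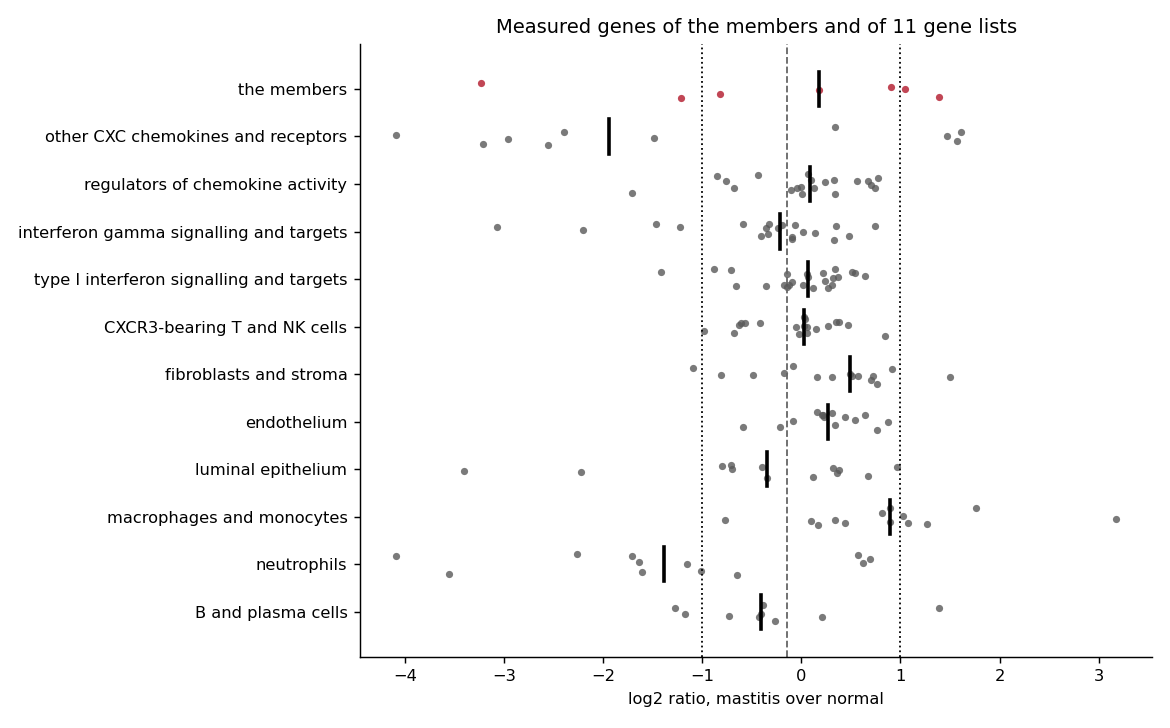
Log2 ratio (horizontal axis, mastitis over normal) of the measured members in red and of the measured genes of 11 gene lists in grey, spread vertically for legibility, with black bars at the medians, dotted lines at 2-fold and a dashed line at -0.15, the median ratio over all genes. The members spread from -3.23 to 1.39, macrophage markers lie mostly to the right of the dashed line, and neutrophil markers and the other CXC genes lie mostly to the left of it.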

How the data were processed

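Total RNA of mammary tissue was labelled with Cy3 and hybridized to an Agilent bovine array of design 023647, 1 array per condition. The authors deposited, per spot, intensities at 532 nm read with GenePix Pro 6.1, raw and net of the mean of the negative controls, unscaled, with the percent of saturated pixels and a flag score. The file headers give these, although other software (Agilent Feature Extraction) stands in the submitters' processing notes and an Affymetrix chip in the methods. The authors also deposited log2 values, normalized in a way not given in the sources used here, with medians of 4.34 for mastitis and 4.29 for normal. The mastitis column of that table ranked probes as the scanner signal of the next probe did (Spearman's rho over probes 1.00, against 0.10 within the row), so the table served as an alternative only.

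Spots not found were dropped, saturated ones kept and replicate spots averaged, and log2 ratios of measured probes were averaged within a gene. A gene was called at 2-fold, the threshold of the methods. Probes were named through the RefSeq table of ARS-UCD2.0 (28562 by accession, 5113 by symbol, 138 by synonym, 1388 by the name in the files, 8452 without a gene). The members and lists were chosen with earlier results of these data known. Named genes are the members, their partners and regulators, up to 4 genes per list with the largest ratios, and some listed genes above background on 1 array alone or on neither. The value of 1 single gene under this rule is not reported here. The calculation was tested on simulated data. No depth applies to arrays; their number limits the precision. Sequences of the probes were not used here.

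The alternatives were normexp (limma 3.58.1 in R 4.3.3, offset 50), quantile, median, spike-in (7 E1A probes), measured-probe percentile and no scaling, no filter on dim probes, a net signal of at least 50, all spots whatever their flag, no saturated probes, the brightest or median probe, accession-named probes, the deposited table with and without moving its rows by 1, and folds of 1.5 and 3. Mean pixel signals and spots marked good alone were added after the data were seen. Scripts ran in Python 3.11.15 (scipy 1.17.1, numpy 2.4.6, pandas 2.3.3), and figures were drawn with matplotlib 3.10.9.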

Additional observations from a re-analysis of the deposited data

How the results depend on the processing

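With 1 array per condition, no setting can show whether a ratio would recur in other cows. No paired analysis was possible because each group has 1 array and no result comes from a test. The count of 2 members at least 2-fold lower was 1 with normexp, spike-in scaling, no scaling or a 3-fold threshold (CXCL11 in each) and 1 with a net signal of at least 50 (CXCL10, with CXCL9 and CXCL11 out for low signal). It was 3 with the brightest probe or a 1.5-fold threshold (CXCL9, CXCL10 and CXCL11) and with the deposited table (CXCL10, CXCL11 and CXCL12). With spots marked good the 2 were CXCL9 and CXCL10 (-1.12), and CXCL11 had no value. The count of 2 members at least 2-fold higher was 1 with normexp, with the brightest probe (CXCL14 in both) or with the deposited table (CXCR4), and 0 with a 3-fold threshold. That count was 3, with CXCL12 added, under median, spike-in or no scaling, a 1.5-fold threshold or the authors' table moved by 1 probe. The median of the members, 0.17, was 0.89 without scaling and 0.90 with a net signal of at least 50, where 5 members had a value. CXCL9 turned to 0.54 and CXCL12, which was within 2-fold, to -2.46 in the deposited table, whose rows are displaced. In the other settings no member changed sign. Scaling moved all genes together: the median of all genes was -0.15 as reported, 0.12 on spike-in probes and 0.57 without scaling, and relative to it each member had the same value under the median, spike-in and measured-probe percentile scalings and without scaling. Genes at least 2-fold lower and higher numbered 1137 and 286 as reported, 409 and 95 with normexp, 761 and 450 with quantile normalization, 831 and 432 with median scaling, 699 and 620 with spike-in scaling, 331 and 2524 without scaling, 3817 and 474 with dim probes kept, 530 and 208 with a net signal of at least 50, and 716 and 263 with spots marked good. Lists moved with scaling too: without it 7 type I interferon genes were at least 2-fold higher and none lower, and 10 macrophage markers were higher. What in these settings moved the counts was not tested. Signal limits CXCL11, whose probes lay at the edge of the background on the mastitis array, and CXCR3, which lay within the background on both arrays. It also limits CXCL9, whose measured probe had 36 on the mastitis array, against 51 on the normal array.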
